A study of Mus musculus with 13 samples.

Results

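The solute carriers described here are the genes of 9 families that move ions, nutrients, metabolites and drugs across epithelial membranes. They were taken by name: every gene on the array whose symbol begins with Slc5a, Slc6a, Slc7a, Slc9a, Slc10a, Slc15a, Slc16a, Slc22a or Slc26a and a number, which gave 115 of the 36163 gene names. Of these, 87 had a probe that cleared background on 2 or more of the 13 arrays and were tested, among 25413 genes in all. The other 28, among them the organic cation carrier Slc22a3 and the renal glucose carrier Slc5a2, did not pass that filter and have no values below. Of the 87, 3 match the name pattern without being carriers of these families: Slc9a3r1 and Slc9a3r2, scaffold proteins that hold Slc9a3 at the apical membrane, and Slc7a6os, a neighbour of Slc7a6 on the opposite strand. All 3 stay in the counts of members, families and solute carriers below.

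The samples were colorectal tissue of CDX2P-NLS Cre;Apc+/loxP mice (CPC-Apc), in which Cre under a Cdx2 promoter deletes 1 Apc allele in the cells that express it, so all 4 groups carry that deletion. Treated mice received miR-200c, miR-302 a to d and miR-369 (both strands) on super carbonate apatite particles through the tail vein, in 24 injections given 3 times weekly and started at 8 weeks, and control mice a negative control microRNA, which the labels of the control arrays name in their description. The groups were normal tissue of control mice (2 arrays), tumors of control mice (7), normal tissue of microRNA mice (2) and tumors of microRNA mice (2). The labels do not tie samples to animals, so p-values rest on the spread among these samples, which may be technical in part. Each array file carries a number that no label explains, and the 7 control tumors hold 3 of these numbers (control tumors 4 to 7 share 1, control tumors 1 and 2 another). Normal and tumor arrays also share numbers: control normal 2 with control tumor 3, and each microRNA normal with the microRNA tumor of the same replicate number. Whether the number marks the mouse is not known. If it does, tumors share animals, which can make the p-values too small. Tumors would then also share animals with normal tissue, which can make p-values of tumor against normal too large. Levels below are log2 intensities relative to the 75th percentile of the same array; they compare arrays for 1 gene, not genes with each other.

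Solute carriers of the gut epithelium work in polarized pairs: apical carriers take a solute from the lumen, often driven by sodium or protons, and other carriers release it toward the blood. In the colon the main tasks are salt and water absorption through sodium-proton and chloride-bicarbonate exchange and uptake of short-chain fatty acids made by bacteria. The small intestine absorbs sugars, amino acids and peptides, and its last segment, the ileum, recovers bile acids.

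Among the 13 arrays, 52.1% to 58.2% of spots and 73 to 78 of the 87 solute carriers were well above background. Before scaling, the 75th percentile of intensity reached 214 to 320 in normal tissue against 415 to 740 in tumors, a gap that the scaling removes. Both control normal arrays were on slide 2 and 6 of the 7 control tumors on slide 1. Epithelial markers were present in every sample, at a mean log2 level of 6.11 to 6.85 in normal tissue and 5.03 to 6.32 in tumors, with 7 of 12 lower in tumors. Markers of smooth muscle and fat were higher in normal samples: all 13 smooth muscle markers (mean level 3.24 to 4.38, against -0.17 to 2.43 in tumors) and all 8 measured adipocyte markers (0.44 to 1.38, against -4.20 to -1.16) fell in tumors. Fibroblast markers did not move this way, with a mean of 2.22 to 2.90 in normal tissue and 2.56 to 3.74 in tumors. Hoxb13, a gene of the distal gut, was below 0 in control tumors 1 and 5 and in microRNA normal 2 and between 5.65 and 6.63 on the other 10 arrays. In whole tissue, fewer cells of a type and less RNA per cell cannot be told apart.

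The first comparison set tumors against normal tissue over both groups of mice. The bile acid carrier Slc10a2, the chloride and sulfate carriers Slc26a3 and Slc26a2, the carnitine carrier Slc16a9, the butyrate carrier Slc5a8 and the choline carrier Slc5a7 fell in tumors, while the cystine carrier Slc7a11, the chloride channel Slc26a9, the lysosomal peptide carrier Slc15a3 and the lactate exporter Slc16a3 rose. In all 40 members changed at a limma adjusted p under 0.05, with 9 higher and 31 lower. The 9 include Slc7a6os and the 31 include Slc9a3r1 and Slc9a3r2, which are not carriers. Over all genes tested 31.4% were called, 11.7% higher and 19.7% lower, and the share of called solute carriers was 46.0%. The median log2 difference was -0.48 over the solute carriers and -0.11 over all genes. Groups did not overlap for 6 members that were higher in tumors and for 17 that were lower, beside 6.89% and 10.5% of all genes.

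These counts depended on the normal arrays. The count was 24 without control normal 1, 23 without control normal 2, 11 without both control normals and 23 without both microRNA normals. Calls over all genes tested fell as well, from 7981 to 4656, 3840, 586 and 4552 in the same settings. With the slide as a block 47 members were called, beside 8423 of all genes, and on slide 2 alone 32, beside 4909. With the number in the file name as a random block the count was 46, beside 8549 of all genes. Slide 1 holds 1 normal array, microRNA normal 2, and no control normal. Differences given on slide 1 alone therefore compare microRNA tumor 2 with microRNA normal 2, and the control tumors add nothing to them. Both arrays are also in the main fit. Calls of 17 members held whichever 1 of the 13 arrays was left out: Slc5a1, Slc5a7, Slc5a12, Slc7a6, Slc7a10, Slc7a11, Slc7a14, Slc9a3r1, Slc10a2, Slc15a3, Slc15a4, Slc16a7, Slc16a9, Slc22a6, Slc22a18, Slc22a23 and Slc26a9. Of these 17, Slc7a11 and Slc26a9 passed the filter through tumors, Slc7a10 through normal arrays and Slc5a12 through the microRNA normals. The filter admitted these genes where they are high, so their calls are not separate support for a direction. Each called member outside the 17 lost its call without at least 1 array. Without scaling between arrays the split of calls turned to 32 higher and 10 lower, with a median of 0.89 over all genes, so every direction here is relative to the bulk of the genes on an array.

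**Figure D1:**
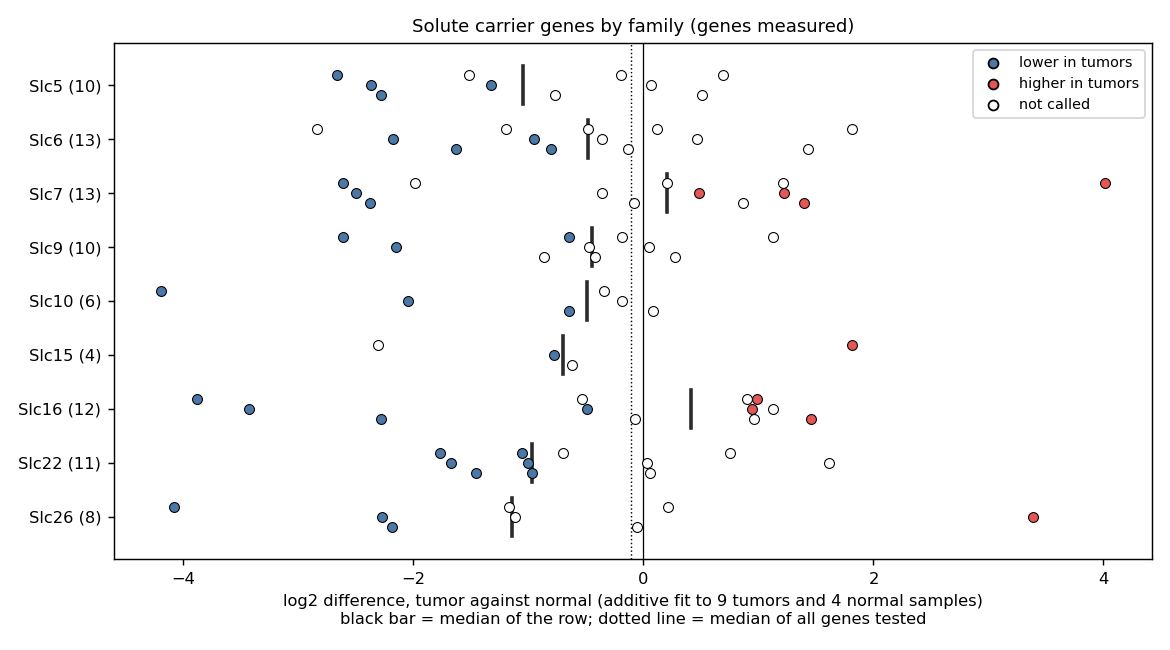
Log2 difference between tumors and normal tissue (x axis) of each of the 87 measured solute carriers, by family (y axis, number of genes in brackets); blue and red points were lower and higher at a limma adjusted p under 0.05, open points were not called, black bars are family medians and the dotted line is the median of all genes (-0.11). The Slc26 and Slc5 families have the lowest medians (-1.14 and -1.05), and the Slc7 and Slc16 families hold 7 of the 9 members that rose, Slc7a6os among them.

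By family, the Slc26 anion exchangers had a median of -1.14, with 3 of 8 measured members lower and 1 higher. Slc5, the sodium-coupled carriers of sugars and small organic molecules, had a median of -1.05 with 4 of 10 lower, and Slc22, the organic ion carriers, -0.97 with 6 of 11 lower; neither had a member that rose. The Slc15 peptide carriers (median -0.70) had 1 of 4 higher and 1 lower. Slc10 (-0.49), Slc6 (-0.48) and Slc9 (-0.45) had 3 of 6, 4 of 13 and 3 of 10 lower and none higher. The other two families had medians above 0: Slc7, the cationic amino acid carriers and light subunits of heteromeric carriers, at 0.20 with 4 of 13 higher and 3 lower, and Slc16, the monocarboxylate carriers, at 0.41 with 3 of 12 higher and 4 lower. The Slc16 median was -0.28 without both control normals and -0.27 on slide 1 alone. Of the genes that are not carriers, Slc9a3r1 and Slc9a3r2 are among the Slc9 falls and Slc7a6os is among the Slc7 rises.

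**Figure D2:**
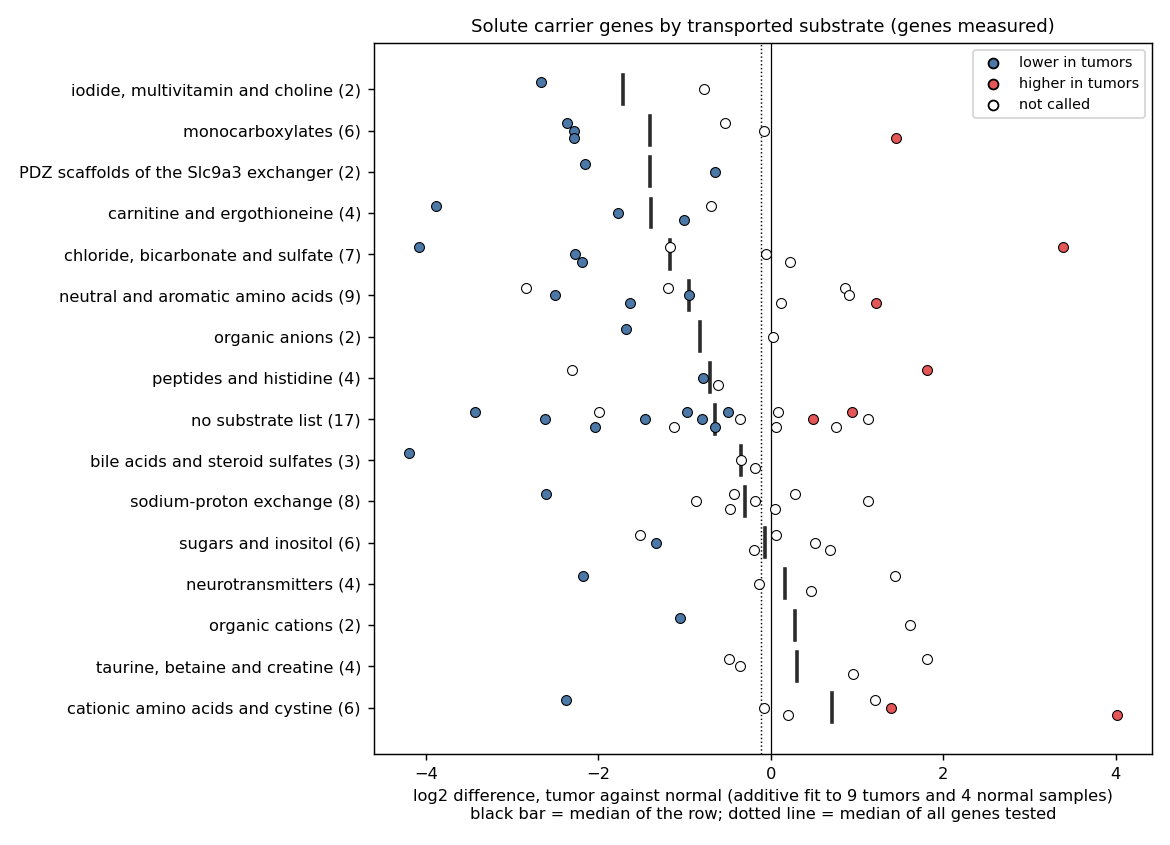
The same log2 differences grouped by transported substrate, for lists with at least 2 measured genes (y axis, number of genes in brackets), ordered by median, with colours and lines as in the plot by family. Of lists with at least 4 members, monocarboxylates (-1.41) and carnitine with ergothioneine (-1.39) have the lowest medians and cationic amino acids with cystine (0.71) the highest.

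Electrolyte carriers of the apical membrane were led by Slc26a3, the chloride-bicarbonate exchanger that absorbs chloride in the colon. Its log2 level was 4.53 and 5.18 in control normals, 4.86 and 4.35 in microRNA normals, 0.05 and 1.75 in microRNA tumors, and -2.61 to 3.49 (median -0.17) in control tumors. Every tumor was below every normal sample, yet control tumors 1, 2 and 5 (3.49, 2.60 and 3.12) stood far above control tumors 3 and 6 (-2.35 and -2.61). The difference was -4.08 (SE 1.13, limma adjusted p = 0.0181), -4.80 with the slide as a block, -2.60 on slide 1 and -6.18 on slide 2; the call was lost without control normal 1 or without control normal 2. Its probe (NM_021353) is placed at chromosome 12, 32158340 to 32158399 (mm9).

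The bases before the Slc26a3 start are shown because they hold a match to the HNF1 motif, bound by a transcription factor of gut, liver and kidney epithelium. The window is chr12:31437969-31438218, plus strand, GRCm38.p6, from RefSeq, and capitals mark the letters GTTAATNAT at 84 to 76 bases before the start.
Slc26a3: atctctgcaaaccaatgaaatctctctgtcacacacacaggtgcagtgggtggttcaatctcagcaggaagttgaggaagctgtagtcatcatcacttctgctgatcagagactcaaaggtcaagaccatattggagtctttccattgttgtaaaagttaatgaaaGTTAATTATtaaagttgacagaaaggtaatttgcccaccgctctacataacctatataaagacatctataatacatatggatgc
Promoters of 62 of the 87 members were in that table. Of these members 2 (3.23%), Slc26a3 and Slc10a2, held this motif on either strand in the 250 bases before a start. The share over all 32851 promoters was 0.74%. That share counts each promoter, while a member with more than 1 promoter counts if any of them matches, here and for the motifs below. A match is a description of the letters, not of binding.

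The sulfate carrier Slc26a2 was 2.23 and 2.71 in control normals, 2.50 and 2.52 in microRNA normals, -0.16 and 0.75 in microRNA tumors and -1.55 to 1.90 (median -0.14) in control tumors, a fall of 2.27 on the log2 scale (SE 0.68, adjusted p = 0.0241, limma) with no overlap. That call was lost without either control normal array. Slc26a1, a sulfate-oxalate exchanger, fell by 2.19 (limma adjusted p = 0.0429), with overlapping groups and a call that 9 of the 13 left-out arrays ended. Moving the opposite way, Slc26a9, a chloride channel best known from stomach and airway, was -4.43 and -5.48 in control normals, -4.41 and -5.26 in microRNA normals, -1.67 and -1.78 in microRNA tumors and -2.68 to -0.74 in control tumors. It was not well above background on any normal array and well above it on all 9 tumors, through which it passed the filter. With the deposited background subtraction Slc26a9 was at least 10.8-fold higher in tumors (fitted log2 difference 3.39, limma adjusted p = 0.000178, with 3.48 on slide 1 and 3.59 on slide 2). With normexp background correction the log2 difference was 1.04, so that lower limit holds only for the deposited subtraction. Slc26a6 and Slc26a4 were not called (-1.17 and -0.06). The list of chloride, bicarbonate and sulfate carriers held 3 lower and 1 higher of 7 measured (median -1.17), and its median turned to 0.55 without both microRNA normals.

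Among sodium-proton exchangers, 1 of 8 fell and none rose (median -0.30). That 1 was Slc9a2, an apical exchanger, at 1.44 and 2.53 in control normals, 2.64 and 2.78 in microRNA normals, -0.62 and -0.31 in microRNA tumors and -2.17 to 2.06 (median -0.52) in control tumors. The difference was -2.61 (SE 0.73, limma adjusted p = 0.0182), and control tumor 1 (2.06) exceeded control normal 1; without control normal 2 the call was lost. Slc9a3, the main apical exchanger of sodium absorption, was not called (0.28, SE 0.57, limma adjusted p = 0.731); its level ran from 2.27 to 5.92 in control tumors and from 3.28 to 4.68 in normal tissue. Its scaffold Slc9a3r1 fell without overlap, from 2.20 and 2.99 in control normals and 4.19 and 3.81 in microRNA normals to 1.01 and 0.92 in microRNA tumors and 0.30 to 1.92 in control tumors (log2 -2.16, SE 0.38, limma adjusted p = 0.00235). Slc9a3r2 fell by 0.64 (limma adjusted p = 0.040), a call that 9 of the 13 left-out arrays ended.

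Slc10a2, the ileal sodium-bile acid carrier, was the 1 of 3 bile acid and steroid carriers that fell. Its level was 1.18 and 2.86 in control normals, 4.82 and 4.62 in microRNA normals, -1.72 and -1.67 in microRNA tumors and -2.05 to 1.64 (median -0.64) in control tumors. MicroRNA normals stood above control normals, and only control tumor 1, at 1.64, overlapped the normal range. The difference was -4.20 (SE 0.76, limma adjusted p = 0.0029), -4.56 with the slide as a block, -6.30 on slide 1 and -4.25 on slide 2; mean levels were 3.37 ± 1.71 (SD, n = 4) in normal tissue and -0.96 ± 1.14 (SD, n = 9) in tumors. The other measured bile acid and steroid carriers, Slc10a1 and Slc10a6, differed by -0.34 and -0.18 and were not called. The Slc10a1 probe read 9 to 9.96 on all 13 arrays, and whether it reports this gene alone was not tested. The window before the start, chr8:5105288-5105537 on the minus strand of GRCm38.p6 (RefSeq), is shown for its HNF1 motif, which here lies on the reverse strand 220 to 212 bases before the start.
Slc10a2: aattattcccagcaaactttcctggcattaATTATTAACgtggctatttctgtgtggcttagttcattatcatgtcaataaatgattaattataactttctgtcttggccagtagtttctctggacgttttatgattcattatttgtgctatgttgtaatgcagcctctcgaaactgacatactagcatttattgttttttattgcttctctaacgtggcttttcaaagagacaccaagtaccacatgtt
A CDX-type motif, TTTATNG on either strand, occurred in 5 of the 62 members (8.06%), Slc10a2, Slc22a2, Slc26a4, Slc26a10 and Slc7a15, and in 9.81% of all promoters.

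Of 6 carriers of short-chain fatty acids, lactate and other monocarboxylates, 3 fell and 1 rose (median -1.41). Slc5a8, the sodium-coupled carrier that takes up butyrate, was 2.63 and 2.39 in control normals, 2.60 and 0.98 in microRNA normals, 0.20 and 0.60 in microRNA tumors and -1.62 to 1.38 (median -0.42) in control tumors. It fell by 2.28 on the log2 scale (SE 0.56, limma adjusted p = 0.0107), by 0.38 on slide 1 and 3.37 on slide 2; only control tumor 2 exceeded the lowest normal sample, and either control normal array left out ended the call. Its relative Slc5a12, another of the 3, was well above background on both microRNA normals alone and passed the filter through them, so its size is not read further. Slc16a7, a high-affinity pyruvate carrier, fell by 2.28 (limma adjusted p = 0.00335), from 0.65 to 2.24 in normal tissue to -1.72 to 0.13 in tumors.

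Slc16a3, the exporter of lactate from glycolytic cells, was 1.38 and 1.31 in control normals, 2.49 and 2.04 in microRNA normals, 3.29 and 2.44 in microRNA tumors and 2.61 to 4.50 (median 3.26) in control tumors. The rise was 1.46 (SE 0.38, limma adjusted p = 0.0138); microRNA tumor 2 (2.44) lay just under microRNA normal 1 (2.49), and the call was lost without control normal 1 or 2. Slc16a1, the widely expressed monocarboxylate carrier of colon cells, was not called (-0.53, limma adjusted p = 0.204). Carriers of carnitine and ergothioneine fell in 3 of 4 measured (median -1.39). Slc16a9, a carnitine efflux carrier, had levels of 0.55 and 2.10 in control normals, 1.42 and 1.51 in microRNA normals, -2.87 and -2.49 in microRNA tumors and -3.92 to 0.02 (median -3.10) in control tumors, with every tumor below every normal sample (log2 -3.88, SE 0.78, limma adjusted p = 0.00446; -4.0 on slide 1 and -4.37 on slide 2). The ergothioneine carrier Slc22a4 fell by 1.77 (limma adjusted p = 0.0234) and the carnitine uptake carrier Slc22a5 by 1.01 (adjusted p = 0.0416, limma), calls that 3 and 10 of the 13 left-out arrays ended.

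**Figure D3:**
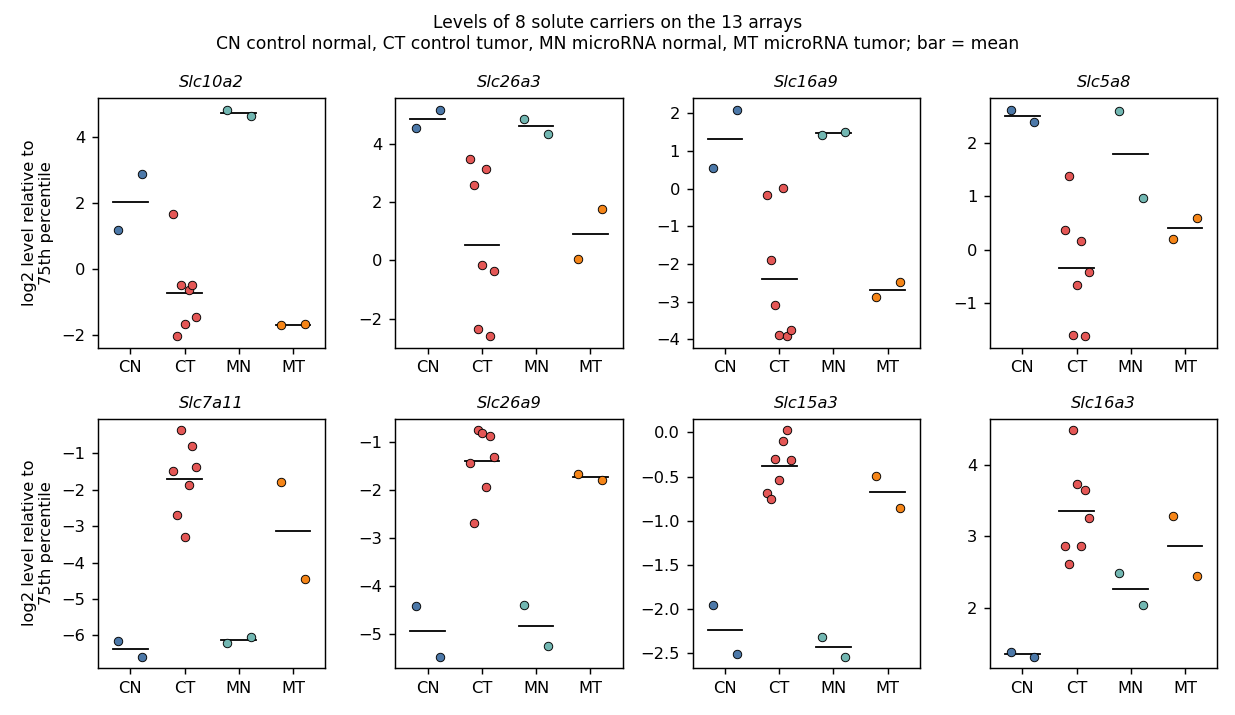
Log2 level relative to the array's 75th percentile (y axis) of 8 solute carriers in the 4 groups (x axis); each point is an array and bars are group means. Slc10a2, Slc26a3, Slc16a9 and Slc5a8 are lower in most tumors with wide spread among the 7 control tumors, and Slc7a11, Slc26a9, Slc15a3 and Slc16a3 are higher; Slc26a9 lies between -2.68 and -0.74 in all 9 tumors and below -4.40 in all 4 normal samples.

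Of 6 sugar and inositol carriers measured, 1 fell and none rose (median -0.07). Slc5a1, the sodium-glucose carrier, was -0.50 and -0.40 in control normals, 1.10 and 0.63 in microRNA normals, -0.85 and -1.07 in microRNA tumors and -1.97 to -0.76 in control tumors, with no overlap (log2 -1.33, SE 0.26, limma adjusted p = 0.00402). The multivitamin carrier Slc5a6 was not called (-0.77, limma adjusted p = 0.123). Slc5a7, the choline carrier of cholinergic nerve endings, fell by 2.67 (limma adjusted p = 0.00621), from -4.41 to -1.53 in normal tissue to -6.96 to -4.49 in tumors, of which 1 of 9 was well above background; its second probe gave -1.43. Enteric neuron and glia markers, whose mean was -1.55 to -0.35 in normal tissue and -3.86 to -1.96 in tumors, fell in 6 of 9 measured, and their part in the Slc5a7 result was not tested.

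Amino acid carriers moved both ways. Slc7a11, the light subunit of the cystine-glutamate exchanger that feeds glutathione synthesis, rose in tumors. Its level was -6.16 and -6.58 in control normals, -6.20 and -6.05 in microRNA normals, -1.80 and -4.45 in microRNA tumors and -3.31 to -0.36 (median -1.50) in control tumors. No normal array was well above background, so Slc7a11 passed the filter through tumors, and every tumor exceeded every normal sample. With the deposited background subtraction the rise was at least 13.3-fold. The fitted log2 difference was 4.02 (SE 0.61), with 1.60 on slide 1, where the 1 microRNA tumor is the lowest, and 5.32 on slide 2. The filter admitted Slc7a11 where it is high, so its limma adjusted p of 0.00123 is not separate support for a rise. With normexp background correction the log2 difference was 0.69 and not called, so the lower limit holds only for the deposited subtraction.

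The window before a Slc7a11 start, chr3:50443614-50443863 on the minus strand of GRCm38.p6 (RefSeq), is shown because it holds 2 copies of the amino acid response element TGATGCAA, in opposite orientation and in capitals.
Slc7a11: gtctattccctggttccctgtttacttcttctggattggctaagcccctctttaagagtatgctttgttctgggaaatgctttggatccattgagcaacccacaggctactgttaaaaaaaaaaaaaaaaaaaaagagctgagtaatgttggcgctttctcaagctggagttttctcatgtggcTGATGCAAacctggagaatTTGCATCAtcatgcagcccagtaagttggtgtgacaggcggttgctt
This element, read on both strands, was found in 2 of the 62 members with a promoter (3.23%), Slc7a11 and Slc7a7, and in 0.79% of all promoters. Slc7a7, the basolateral partner that exports cationic amino acids, was not called (-0.08).

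Other light subunits and cationic carriers were smaller in change. Slc7a5, the carrier of large neutral amino acids, was -2.20 and -2.61 in control normals, -2.18 and -1.68 in microRNA normals, -1.42 and -1.14 in microRNA tumors and -1.54 to 0.17 in control tumors (log2 1.22, SE 0.38, limma adjusted p = 0.0289). Groups did not overlap, but a second probe gave 0.11, and the call was lost with the slide as a block (0.86). Slc7a6, an exchanger of cationic for neutral amino acids, rose by 1.40 (SE 0.25, limma adjusted p = 0.00271), from -3.15 to -2.36 in normal tissue to -1.93 to -0.76 in tumors. Slc7a9, the apical cystine and cationic amino acid carrier, fell by 2.37 (limma adjusted p = 0.0307), a value set by the microRNA normals as described below. Cationic amino acid and cystine carriers thus held 2 higher and 1 lower of 6 measured (median 0.71).

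Carriers of neutral and aromatic amino acids held 1 higher and 3 lower of 9 (median -0.95, and 0.68 without both microRNA normals). Slc6a14, a broad sodium- and chloride-coupled carrier, was 2.67 and 2.41 in control normals, 3.01 and 2.09 in microRNA normals, 1.55 and 1.87 in microRNA tumors and -0.84 to 2.09 (median 0.51) in control tumors, and fell by 1.63 (limma adjusted p = 0.0283; 0.22 on slide 1, 2.47 on slide 2). Control normal 1, control normal 2 or microRNA normal 1 left out ended the call. Slc7a10, a carrier of small neutral amino acids, was at least 5.54-fold lower, with no tumor well above background, and passed the filter through normal arrays. Its known sites include fat, and adipocyte markers fell in 8 of 8 measured beside it; their part was not tested. The proline carrier Slc6a20a fell by 0.95 (limma adjusted p = 0.0450), a call lost without any 1 of 9 arrays and a value of 0.04 without scaling.

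Peptide and histidine carriers held 1 higher and 1 lower of 4. Slc15a3, a lysosomal carrier known from macrophages and other immune cells, was -1.96 and -2.51 in control normals, -2.32 and -2.54 in microRNA normals, -0.49 and -0.86 in microRNA tumors and -0.75 to 0.03 in control tumors. Its rise of 1.81 (SE 0.19; 1.68 on slide 1, 1.89 on slide 2) had the smallest limma adjusted p of all members, 0.000127, and the groups lay over 1 log2 unit apart. Macrophage markers had a mean of 0.89 to 1.22 in normal tissue and 1.30 to 2.15 in tumors, with 2 of 8 higher, and their part was not tested. Slc15a4, the other lysosomal carrier, fell by 0.78 (limma adjusted p = 0.00672), from 3.29 to 3.92 in normal tissue to 2.60 to 3.28 in tumors. Slc15a1, the apical peptide carrier, was not called (-2.31, limma adjusted p = 0.0998).

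Slc6a4, the carrier that clears serotonin into epithelial cells, fell by 2.18 (SE 0.53, limma adjusted p = 0.0105). Its level was 0.03 and -0.62 in control normals, 0.31 and -0.35 in microRNA normals, -1.87 and -1.26 in microRNA tumors and -4.03 to -0.69 in control tumors, so that the highest tumor (-0.69) lay just below the lowest normal sample; without control normal 1 the call was lost. None of 4 carriers of taurine, betaine and creatine was called (median 0.30): the taurine carrier Slc6a6 differed by -0.48, the creatine carrier Slc6a8 by -0.36 and the betaine carrier Slc6a12 by 1.81 (limma adjusted p = 0.0639). The organic anion carrier Slc22a6 fell by 1.68 (limma adjusted p = 0.0048).

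Of 17 measured members in no substrate list, 8 fell and 2 rose (median -0.65). Slc16a5 was 2.10 and 2.94 in control normals, 3.28 and 3.70 in microRNA normals, -0.89 and 0.22 in microRNA tumors and -2.87 to 1.80 in control tumors (log2 -3.43, limma adjusted p = 0.0115, no overlap), a call lost without control normal 2. Slc7a14 fell by 2.62, Slc10a5 by 2.04, Slc22a18 by 1.46 and Slc22a23 by 0.97. Slc16a6 rose by 0.94.

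Partner proteins of these carriers moved mainly down: of 23 measured, 15 fell and 1 rose (median -1.69). Slc3a1, the heavy subunit that pairs with Slc7a9, fell by 3.05. Slc3a2, the heavy subunit that pairs with Slc7a5, Slc7a6 and Slc7a11, was not called (0.58, limma adjusted p = 0.0645). The water channel Aqp8 fell by 4.47, the chloride channel Cftr by 1.91, the carbonic anhydrases Car2 and Car4 by 2.40 and 1.69, and the sodium pump subunit Atp1b1 by 1.17. Among proteins of bile acid handling, the basolateral exporter subunits Osta (-8.95, with 4 of 9 tumors well above background) and Ostb (-3.38) and the binding protein Fabp6 (-5.54) fell, all with overlapping groups. Osta was 4.47 and 3.20 in control tumors 1 and 5, within the range of normal tissue (3.00 to 7.43). In the other tumors it was -6.08 to -3.67, so the fitted Osta difference describes neither set. The bile acid receptor Nr1h4 was not called (-1.61, limma adjusted p = 0.0846). The hormone Fgf15 was well above background on both microRNA normals alone and passed the filter through them, so its size is not read. In control mice by themselves Fabp6 fell by 2.97 (limma adjusted p = 0.0387), while Osta (limma adjusted p = 0.0876) and Ostb (limma adjusted p = 0.134) were not called. Emb, a chaperone of Slc16a7, was the 1 partner that rose (1.09).

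The tumor effect was then taken in each group of mice. In control mice 25 members changed, 10 higher and 15 lower, beside 19.1% of all genes (8.18% higher and 10.9% lower); the median was -0.21 over members and -0.09 over all genes. Slc7a11 was at least 14.5-fold and Slc26a9 at least 11.8-fold higher, Slc16a3 rose by 2.01, Slc15a3 by 1.85 and Slc7a5 by 1.59, while Slc16a9 fell by 3.71, Slc5a8 by 2.85, Slc10a2 by 2.77 and Slc16a7 by 2.69. Called members also rose from below background, Slc7a3, a cationic amino acid carrier, at least 3.30-fold, and Slc5a4a, a glucose-sensing relative of Slc5a1, at least 2.47-fold. Groups overlapped for Slc7a3, at -3.87 and -6.60 in control normals and -4.06 to -2.46 in control tumors. Its call was lost without any 1 of 7 arrays, control normal 2 among them. Slc5a7 was at least 12.1-fold lower. The slide sets a limit: with it as a block 11 members were called, 8 of them among the 25, and of the genes just named Slc16a9, Slc5a8, Slc10a2, Slc7a5, Slc7a3 and Slc5a4a lost their call. On slide 2 alone, where the tumor arm is 1 array assumed to vary like the other groups, 28 were called and 9 of them were among the 25. With the number in the file name as a random block 18 of the 25 were called, and of the genes just named not Slc10a2, Slc5a4a, Slc7a3 or Slc7a5. The count was 5 without control normal 1, 4 without control normal 2, 15 without control tumor 4 and 16 without control tumor 7, and the calls of Slc15a3 and Slc26a9 alone held whichever 1 array was left out.

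In microRNA mice 11 members changed, 2 higher and 9 lower, beside 3.12% of all genes (1.39% higher and 1.73% lower); the medians were -0.70 and -0.14. Slc6a19, the main apical carrier of neutral amino acids in the small intestine, was at least 204-fold lower in tumors than in normal tissue. Slc6a19 and Slc7a15 passed the filter through the 2 microRNA normals, where they are high, so their calls are not separate support for a fall. Slc7a15 was well above background on no other array, and its size is not read further. Slc10a2 fell by 6.42, Slc7a9 by 4.75, Slc26a6, an apical chloride-bicarbonate and oxalate exchanger, by 4.14, Slc9a3r1 by 3.03 and Slc5a1 by 1.82. Slc26a9 was at least 8.64-fold higher and Slc15a3 rose by 1.75. With 2 arrays a group, leaving 1 out gave 4 calls without microRNA normal 1, 7 without microRNA normal 2 and 3 without microRNA tumor 1; Slc26a6 and Slc6a19 were called each time. On slide 1 alone there was 1 call and on slide 2 alone 7.

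**Figure D4:**
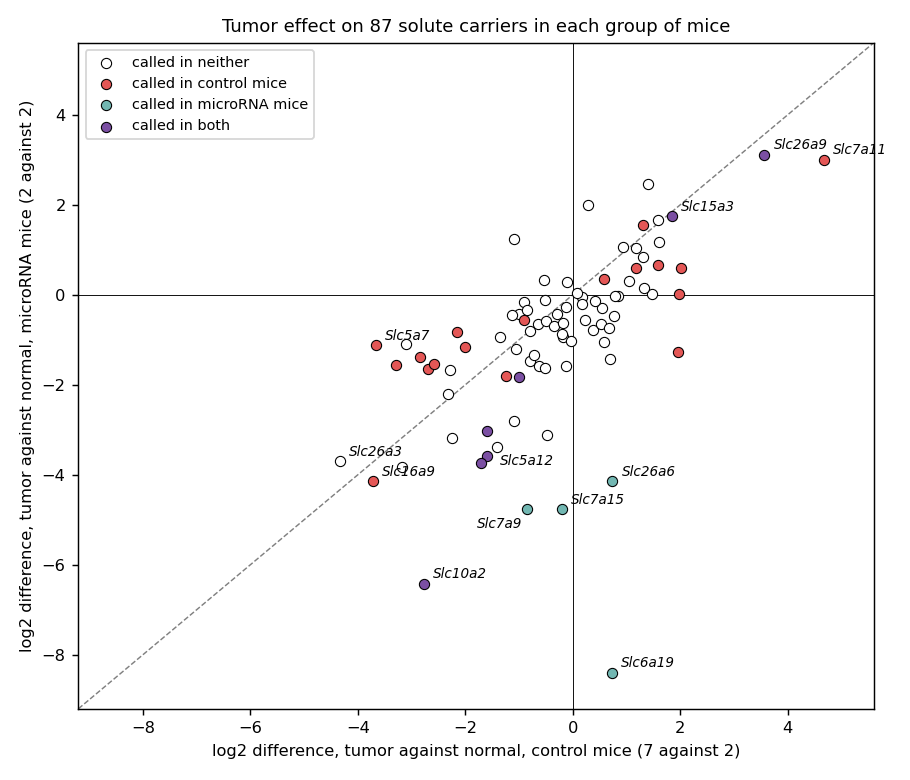
Log2 difference between tumor and normal tissue of the 87 measured solute carriers in control mice (x axis, 7 against 2 arrays) and in microRNA mice (y axis, 2 against 2 arrays), coloured by where the gene was called; the dashed line marks equal differences. Slc26a6 (-4.14 in microRNA mice), Slc6a19 and Slc7a15 lie far below the line, Slc6a19 and Slc7a15 at fitted positions that rest on values not above background in microRNA tumors and control normals, and Slc26a9 and Slc15a3 lie near it.

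The difference between these tumor effects was itself tested, and 3 members passed, all lower, beside 0.279% of all genes (0.102% higher and 0.177% lower): Slc26a6 (-4.88, SE 0.54, limma adjusted p = 0.00475), Slc6a19 (limma adjusted p = 0.0199) and Slc7a15 (limma adjusted p = 0.0305). No size is given for Slc6a19 and Slc7a15, whose control normals and microRNA tumors were not above background. Both passed the filter through the microRNA normals, where they are high, so their p-values are not separate support for a difference. Slc26a6 alone was called whichever 1 array was left out and with the slide as a block, but it lost its call on slide 2 alone, where none was left, and with the replicate number as a block, where Slc6a19 was the 1 call. The count was 1 without control normal 1 or any 1 of the 4 microRNA arrays. Slc10a2 (-3.65) and Slc7a9 (-3.91) did not pass.

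The normal tissues held the larger gap between treatments. In normal tissue 4 members were higher in microRNA mice and none lower, beside 0.531% of all genes (0.283% higher and 0.248% lower), with a median of 0.27 over members and 0.04 over all genes. Slc6a19 was 1.87 and 0.57 in microRNA normals, through which it passed the filter, against -6.34 and -6.79 in control normals. It was not well above background in control normals, and so at least 110-fold higher in microRNA normals. The filter admitted Slc6a19 and Slc7a15 where they are high, so their calls here are not separate support for a difference. Slc26a6 was 4.21 and 2.77 against -1.44 and -1.0 (log2 4.71, SE 0.42, limma adjusted p = 0.000345). Slc7a9 was 4.38 and 3.38 against -1.13 and -0.52 (log2 4.70, limma adjusted p = 0.0351), and Slc7a15, which passed the filter only through the microRNA normals, -1.42 and -1.93 against -5.86 and -6.30. On all 9 tumors Slc26a6 lay between -0.92 and -0.15 and Slc7a9 between -3.07 and 0.03, closer to control normals than to microRNA normals. Without microRNA normal 1 there was 1 call, Slc26a6, and with the 2 normal groups fitted alone the other 3 were called and Slc26a6 was not. The Slc7a9 call was lost without any 1 of 9 arrays, with the slide or the replicate number as a block, and with the file-name number as a random block.

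Small intestine markers moved with this gap. Their mean over 12 measured was 3.07 and 2.14 in microRNA normals, -1.63 and -0.78 in control normals and -4.64 to -1.48 in tumors; all 12 were above 0 in the difference between the normal groups (median 3.40) and 4 were called. Fabp6, the ileal bile acid-binding protein, was 9.54 and 8.50 in microRNA normals and 1.27 and 2.98 in control normals, and sucrase-isomaltase (Sis) 4.52 and 2.71 against -3.84 and -0.61. Pdzk1, a scaffold of apical carriers, was not well above background in control normals and at least 136-fold higher in microRNA normals. In the other direction squamous epithelium markers were 0.78 and -0.39 in control normals and -2.81 and -2.77 in microRNA normals, and skeletal muscle markers -0.32 and 0.36 against -2.38 and -2.59. The part of these markers in the carrier results was not tested, and where along the gut each sample was taken is not given in the labels.

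**Figure D5:**
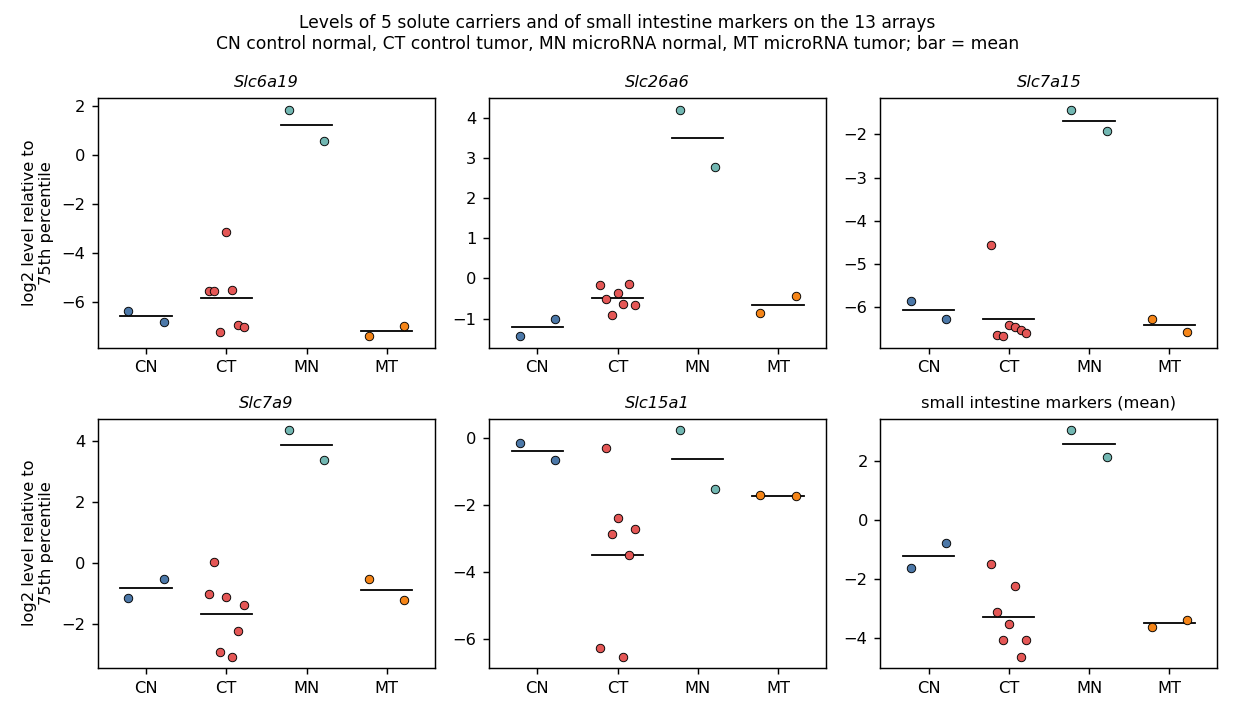
Log2 level relative to the array's 75th percentile (y axis) of 5 solute carriers, and the mean level of 12 small intestine markers, in the 4 groups (x axis); each point is an array and bars are group means. Slc6a19, Slc26a6, Slc7a15 and Slc7a9 are highest in the 2 microRNA normals, where the marker mean is 3.07 and 2.14, and Slc15a1 is not.

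In tumors no solute carrier differed between microRNA and control mice at a limma adjusted p under 0.05, and 1 of 87 had an unadjusted p under 0.05, beside 0.00393% and 2.10% of all genes. That member was Slc26a4, the anion exchanger pendrin, at -4.53 and -3.54 in microRNA tumors and -3.67 to -0.46 in control tumors (log2 -1.52, SE 0.63, limma adjusted p = 1.00). Slc6a14 differed by 1.32, Slc6a4 by 1.31 and Slc7a11 by -1.43, all with overlapping groups. With 2 microRNA tumors these intervals are wide: the SE was 0.63 for Slc6a14 and 0.75 for Slc7a11.

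Among the 7 control tumors the range from lowest to highest had a median of 1.83 log2 units over the solute carriers and 1.18 over all genes. Among members well above background on at least 4 of them, Slc15a1, well above background on 5 of the 7, had the widest range (6.20): -6.26 in control tumor 1, -6.52 in control tumor 5, and -3.49 to -0.31 in the other 5. Those 2 tumors are the ones with Hoxb13 below 0. They held the highest levels of Slc26a3 (range 6.09), 3.49 and 3.12, against -2.61 to 2.60 in the other 5. The 2.60 was in control tumor 2, whose Hoxb13 level was 6.63, so high Slc26a3 was not confined to the tumors with low Hoxb13. Slc16a9 was also highest in control tumors 1 and 5 (-0.16 and 0.02, against -3.92 to -1.90 in the other 5). Slc7a8, a basolateral exchanger of neutral amino acids, had the reverse order (range 4.85), with -2.37 and -2.24 in control tumors 1 and 5 and 2.48 in control tumor 6. Slc16a5 (4.67) and Slc26a1 (4.54) followed in width, both highest in control tumor 1. Without the 3 arrays whose Hoxb13 level was below 0, a setting chosen after seeing the data, 42 members were called over both groups, of which 37 were among the 40. Over all genes tested 8901 were called in that setting, beside 7981 in the main fit.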

How the data were processed

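Per the labels, Cy3 labelling used 35 ng of RNA, and each sample was read on its own Agilent SurePrint G3 mouse array. The deposited values are fluorescence intensity on a linear scale, which the authors extracted with Feature Extraction 10.7.3.1 per the file headers; background is already subtracted and arrays are not scaled to each other. Probe coordinates are mm9. The log2 of each intensity was reduced by the log2 of the array's 75th percentile; 3671 control spots were left out, 35214 of 55681 probes well above background on at least 2 arrays were kept, and each gene name took its brightest probe (20 members had more than 1; Slc16a13 differed in sign, Slc7a5 and Slc5a7 by over 1).

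Differences were fitted with limma 3.58.1 (lmFit, eBayes; R 4.3.3) to all 13 arrays, with an additive model of tissue and treatment and a model of 4 group means, Benjamini-Hochberg over 25413 genes, called under 0.05. The procedure was tested on simulated data. Where no array of the lower group cleared background, the fold is a lower limit, against the higher of its own signal and the array's detection floor. These limits were computed with the deposited background subtraction only. The array number limits precision. For each of 85 members the file's accession was in the RefSeq table, with the same symbol. Promoters were the 250 bases before each start in that table. Figures used Python 3.11.15 and matplotlib 3.10.9.

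Members and gene lists were chosen with earlier results of these data known. Named were a set with known gut roles, up to 10 members with the largest called rise and fall, up to 5 per direction (or the 3 smallest p) in other comparisons, family extremes, the widest ranges among control tumors and called partners; others are named as members of counted lists. The alternatives were background correction, scaling, filter, probe rule, fit, slide, replicate number, file-name number and left-out arrays; those without the Hoxb13-low arrays, a whole normal group, or control tumors 1 and 2 were chosen after seeing the data. No label says that replicate numbers pair samples; in microRNA mice, normal and tumor arrays of 1 replicate number also share a slide and a file-name number. Results for some genes are not reported here.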

Additional observations from a re-analysis of the deposited data

Results flagged for a closer look

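Of 55 named solute carriers, 6 had a control tumor far from the other 6 (chance flags about 1 in 20). Slc10a2 was 1.64 in control tumor 1, against -0.50 in the next tumor, and Slc7a15 was -4.56 in the same tumor, against -6.43, though it was not well above background on any control tumor. Control tumor 3 held Slc10a3, a carrier of unknown substrate, at 1.74 (next 1.51) and the taurine carrier Slc6a6 at 2.06 (next 2.85). Slc6a19 was -3.14 in control tumor 4 (next -5.50), the 1 tumor in which it was well above background. Slc5a4a was -2.82 in control tumor 7 (next -3.92).

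The tumor effect of 3 genes differed between microRNA and control mice by a test of the difference itself: Slc26a6 by -4.88, and Slc6a19 and Slc7a15 by fitted values of -9.12 and -4.56. The fitted values of Slc6a19 and Slc7a15 are not measured sizes, since control normals and microRNA tumors were not above background. Both genes passed the filter through the microRNA normals, where they are high, so their calls are not separate support.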

How the results depend on the processing

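Without scaling between arrays Slc6a20a (0.041), Slc7a7 (0.91) and the median of members in no substrate list (0.35) turned positive. The Slc16 median was -0.27 on slide 1 alone and -0.28 without both control normals, and without both microRNA normals the medians of chloride, bicarbonate and sulfate carriers (0.55) and of neutral and aromatic amino acid carriers (0.68) turned positive. Over both groups the 40 calls became 1 on slide 1 alone, 11 without both control normals and 23 without both microRNA normals. Over all genes the calls over both groups went from 7981 to 586 without both control normals and to 4552 without both microRNA normals. In control mice 25 became 11 with the slide as a block. In microRNA mice 11 became 18 with normexp, 1 on slide 1, 7 on slide 2 and 17 with the file-name number as a random block. The 3 differences between tumor effects became 1 with the slide as a block and 0 on slide 2, and the 4 calls in normal tissue 2 on slide 2. With the replicate number as a block the counts were 19 over both groups, 3 in control mice, 15 in microRNA mice and 1 for the difference; samples of 1 number correlated in their deviations by -0.19 to 0.09 between groups, and by 0.42 between microRNA normals and tumors, where the number is also the slide and the file-name number. Leaving out 1 array gave 23 to 42 calls over both groups, 4 to 29 in control mice, 3 to 14 in microRNA mice, 1 to 3 for the difference, 0 in tumors and 1 to 5 in normal tissue. Calls over both groups split into 9 higher and 31 lower, or 6 and 41 with normexp, 12 and 31 with quantile normalization, 9 and 23 with median scaling, 10 and 43 without the filter, and 32 and 10 without scaling. Of the 31 named members called over both groups, all kept their sign on each slide alone. On slide 1 that sign is microRNA tumor 2 against microRNA normal 2, both also in the main fit, so it is not a separate check. The causes of these changes were not tested.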
